A study of Mus musculus with 9 samples.

Results

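The mitochondrial NADPH redox genes described here are Nnt and 9 genes that make or spend NADPH inside mitochondria or feed peroxide to that system: Idh2, Me3, Gsr, Txnrd2, Txn2, Prdx3, Prdx5, Glrx2 and Sod2. They were taken by symbol from a table of 57180 genes, in which these 10 symbols fill 11 rows because Nnt is listed as 2 overlapping records. The samples are hippocampal RNA libraries from 9 male mice aged 6 weeks, in 3 groups of 3. The MAN@SKI II group were BTBR T+ Itpr3tf/J (BTBR) mice, an inbred strain used as a model of autism, that received MAN@SKI II by tail vein at 40 mg/kg each day for 7 days from 5 weeks of age. The labels call the agent a nanomicelle that targets the brain and inhibits S1P. The Model group were BTBR mice on vehicle, and the Con group were C57BL/6J mice on vehicle, named saline by 1 label field and PBS by another. Model and Con differ at every locus where these inbred strains differ, so no difference between them can be tied to a single gene, and MAN@SKI II and Con differ in strain and in treatment, which cannot be told apart.

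NADPH is the reducing currency with which mitochondria remove the peroxide that respiration makes. Nicotinamide nucleotide transhydrogenase (Nnt) uses the proton gradient of the inner membrane to pass hydride from NADH to NADP+, and the matrix enzymes isocitrate dehydrogenase (Idh2) and malic enzyme (Me3) reduce NADP+ with isocitrate and malate. Superoxide dismutase (Sod2) turns superoxide into hydrogen peroxide, peroxiredoxins (Prdx3, Prdx5) reduce the peroxide, and thioredoxin (Txn2), thioredoxin reductase (Txnrd2), glutathione reductase (Gsr) and glutaredoxin (Glrx2) return the oxidised thiols to their reduced state at the expense of NADPH. C57BL/6J is known for a deletion of several exons within Nnt that leaves the strain without functional enzyme.

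Library totals were 14751054 to 18827093 counts, so that 3 counts correspond to 0.159 to 0.203 CPM (counts scaled to library size), the unit of the levels below unless another is named. All 4 neuronal and all 4 hippocampal neuron markers were above 3 counts in every library. Markers of the choroid plexus and of oligodendrocytes differed between strains. Of the other types, 1 of 5 astrocyte markers fell in Model. Of 5 microglia, 4 ependyma, 4 endothelium and 5 blood markers, 0 rose or fell. The summed level of 7 choroid plexus markers was 46.9 to 348 CPM in MAN@SKI II mice, 39.1 to 293 CPM in Model and 894 to 2413 CPM in Con, and 4 of them fell in Model. That of 6 oligodendrocyte markers was 2376 to 2702 CPM, 2810 to 3111 CPM and 4481 to 5164 CPM in the same groups, and 4 fell in Model. In tissue RNA, fewer cells of a type and less RNA per cell cannot be told apart. MAN@SKI II 2 stood apart, with 9.63% of its counts from mitochondrially encoded genes, against 6.26% to 7.15% in the other 8 libraries.

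In the strain comparison, 2 of the 11 rows were higher in Model than in Con and 0 were lower. Me3 was about 1.58-fold higher and Sod2 about 1.195-fold higher, while Nnt itself was not called. A call means p below 0.05 in edgeR's quasi-likelihood test after Benjamini-Hochberg adjustment across all 17550 genes tested, and log2 fold changes are given ± SE. Over all genes tested, 3.11% were higher and 4.52% lower in Model. The median log2 fold change of the 11 rows was 0.11 and that of all genes tested 0.00036, and 10 of the 11 values were positive. Both overlapping Nnt records are among these 10. The values of Gsr, Txn2 and Nnt record ENSMUSG00000116207 changed sign when single libraries were left out. The treatment comparison called 0 of the 11 rows.

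**Figure D1:**
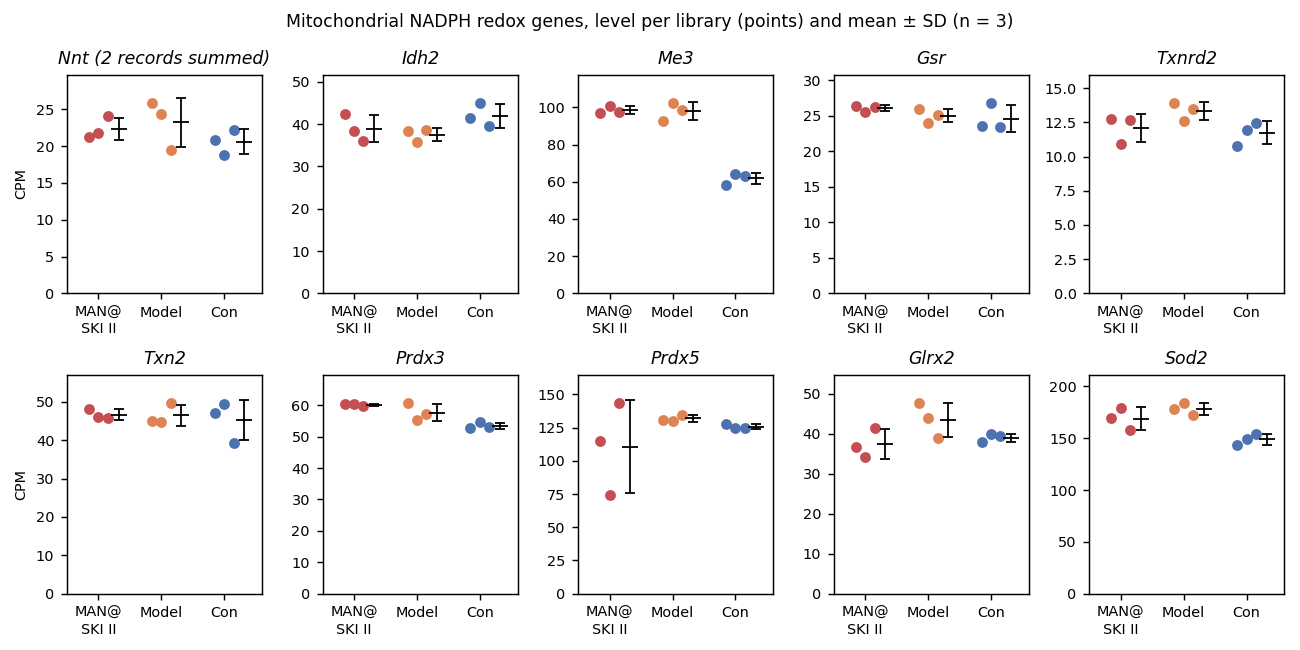
Level in CPM (linear axis from 0) of the 10 genes in every library, with the mean and SD of each group of 3 at the right of its points. Me3 lies between 92.8 and 102 CPM in the 6 BTBR libraries, above all Con libraries (58.3 to 64.3 CPM), while Prdx5 has 1 low library in the MAN@SKI II group (74.0 CPM).

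Nnt had 21.2, 21.7 and 24.0 CPM in the MAN@SKI II mice, 25.8, 24.3 and 19.5 CPM in the Model mice and 20.8, 18.7 and 22.2 CPM in the Con mice when the counts of both records were summed, a step chosen after the data were seen. The 3 groups overlapped, and Nnt RNA was counted in all 3 C57BL/6J mice. Each library held 307 to 431 such counts. The log2 fold change of Model against Con was 0.17 ± 0.12 (95% interval -0.09 to 0.43, adjusted p = 0.503 by edgeR), which as a fold is an interval of 0.939 to 1.35. These counts do not test the deletion. The table has 1 number per record and none per exon, and the mouse reference genome is itself C57BL/6J, so that exons missing from that strain are not in its gene models and cannot collect reads from either strain. The level of Nnt therefore neither checks the strain labels nor says whether the RNA encodes a working enzyme.

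The records are ENSMUSG00000116207 (chromosome 13, 119472064 to 119545488, minus strand, GRCm39) and ENSMUSG00000025453 (119471984 to 119545533, same strand). In the GENCODE M21 gene models, all 3339 exon bases of ENSMUSG00000116207 are also exon bases of ENSMUSG00000025453, which has 3698 of its own. They share 16 splice junctions, and 0 junctions belong to ENSMUSG00000116207 alone. A read in the shared exons could be given to either record, and how the authors divided such reads is not given in the sources used here. ENSMUSG00000116207 had 18.1 ± 1.28 CPM in MAN@SKI II mice, 19.9 ± 4.26 CPM in Model and 18.9 ± 1.69 CPM in Con (SD, n = 3 each), with 0.08 ± 0.15 for Model against Con (adjusted p = 0.853 by edgeR). ENSMUSG00000025453 had 1.67, 4.53 and 6.45 CPM in MAN@SKI II mice, 1.498, 4.64 and 3.62 CPM in Model and 2.15, 1.41 and 1.49 CPM in Con. Its log2 fold changes were 0.96 ± 0.54 for Model against Con (adjusted p = 0.390 by edgeR) and 1.32 ± 0.53 for MAN@SKI II against Con (adjusted p = 0.191, and 0.0423 without MAN@SKI II 1).

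The share of Nnt counts given to ENSMUSG00000025453 differed among BTBR mice of 1 group. It was 7.86%, 20.8% and 26.9% in MAN@SKI II 1 to 3, 5.80%, 19.1% and 18.6% in Model 1 to 3, and 10.3%, 7.55% and 6.73% in Con 1 to 3. The exact 95% binomial intervals of the 4 high BTBR libraries began at 14.7% or above, and the highest Con interval ended at 14.2%. These 4 were picked by their high share, so this gap is a description and no test. The intervals of the other BTBR libraries, MAN@SKI II 1 (5.33% to 11.1%) and Model 1 (3.79% to 8.44%), overlapped those of Con. These intervals treat each read as independent, which copies made by PCR are not, so they can be too narrow even for counting error. They also leave out the spread between mice and how shared reads were divided.

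**Figure D2:**
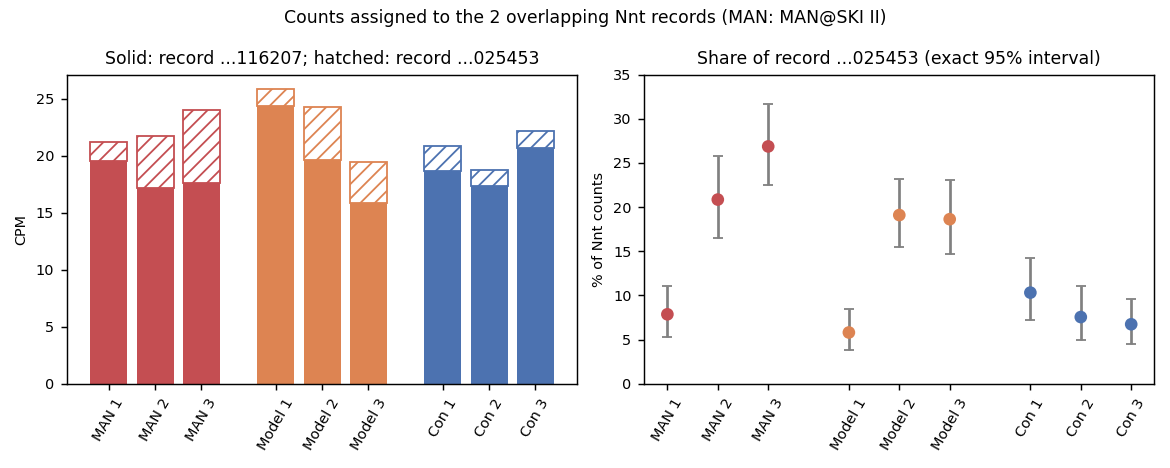
Left, CPM of the Nnt records ENSMUSG00000116207 (solid) and ENSMUSG00000025453 (hatched) in each library; right, the share of Nnt counts in the second record with exact 95% binomial intervals. The summed level runs from 18.7 to 25.8 CPM with overlapping groups, and the share is between 18.6% and 26.9% in 4 BTBR libraries and at 10.3% or below in the other 5 libraries.

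Me3 and Sod2, the members that rose, are shown with the window from 250 bases before to 50 bases after the start of the gene (RefSeq, GRCm38.p6, plus strand, C57BL/6J letters). Capitals mark GGGCGG, the GC box of Sp-type factors, read on both strands; matches of TGACNNNGC, the core of the antioxidant response element of NRF2, would be capitals too, and there are none.
Me3 (chr7:89632568-89632867): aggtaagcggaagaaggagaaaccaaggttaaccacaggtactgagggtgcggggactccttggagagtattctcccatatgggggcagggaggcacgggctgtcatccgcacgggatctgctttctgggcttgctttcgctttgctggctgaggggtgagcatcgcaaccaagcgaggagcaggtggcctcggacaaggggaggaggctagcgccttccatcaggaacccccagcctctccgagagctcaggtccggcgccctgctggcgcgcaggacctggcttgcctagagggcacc
Sod2 (chr17:13007589-13007888): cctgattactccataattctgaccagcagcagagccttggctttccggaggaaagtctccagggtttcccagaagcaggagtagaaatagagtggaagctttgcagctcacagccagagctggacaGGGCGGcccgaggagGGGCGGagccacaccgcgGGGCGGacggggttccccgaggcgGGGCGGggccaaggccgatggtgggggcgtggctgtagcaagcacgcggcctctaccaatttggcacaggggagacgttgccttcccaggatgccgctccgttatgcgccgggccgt

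The Sod2 window holds 4 GC boxes and the Me3 window holds 0, with no overlap among the matches, and the 2 windows have 64.3% and 62.7% G or C. Of the 10 genes, 8 matched a window, Glrx2 with several. A GC box was present in 8 of their 11 windows, those of 7 genes, and in 35.7% of all 32851 mouse windows of the same length. Some of the Glrx2 windows overlap each other and are not separate counts. The 11 windows had 44.3% to 70.7% G or C, and the median of all windows was 52.7%. The part of base content in the count of GC boxes was not tested. TGACNNNGC was in 0 of the 11 windows and in 12.4% of all windows. A match describes letters only, and the windows show the C57BL/6J sequence, not that of BTBR.

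Me3 had 96.97, 101 and 97.4 CPM in the MAN@SKI II mice, 92.8, 102 and 98.7 CPM in the Model mice and 58.3, 64.3 and 62.8 CPM in the Con mice. All BTBR libraries were above all Con libraries, and the BTBR groups covered each other. For Model against Con the log2 fold change was 0.66 ± 0.07 (adjusted p = 0.000123 by edgeR; fold 1.58, 95% interval 1.43 to 1.75). For MAN@SKI II against Con it was 0.67 ± 0.07 (adjusted p = 0.000113), and these comparisons share the Con mice. Among the 546 genes that rose in Model, whose median was 0.74, Me3 ranked 295 by log2 fold change. Me3 (ENSMUSG00000030621) lies on chromosome 7 from 89281600 to 89503567 on the plus strand (GRCm39). The choroid plexus and oligodendrocyte markers above moved with the same contrast, and their part in it was not tested.

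Sod2 had 169, 179 and 158 CPM in the MAN@SKI II mice, 178, 184 and 172 CPM in the Model mice and 143, 149.7 and 154 CPM in the Con mice. Again the BTBR libraries were all above the Con libraries. The difference was 0.26 ± 0.06 for Model against Con (adjusted p = 0.0332 by edgeR; fold 1.195, interval 1.08 to 1.32), rank 529 of the 546 risers. This call was lost when any Model or Con library was left out (adjusted p = 0.0669 to 0.148), and without MAN@SKI II 1 (0.0512), while its value stayed between 0.23 and 0.28. For MAN@SKI II against Con it was 0.18 ± 0.06 and not called (adjusted p = 0.125). A Sod2 transcript (ENSMUSG00000006818; chromosome 17, 13225733 to 13258950, plus strand, GRCm39) shares 3110 bases at 98.3% identity with a transcript of the kinase gene Rps6ka2, which makes its count uncertain. Rps6ka2 had a log2 fold change of -0.06 ± 0.07 for Model against Con (adjusted p = 0.698).

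**Figure D3:**
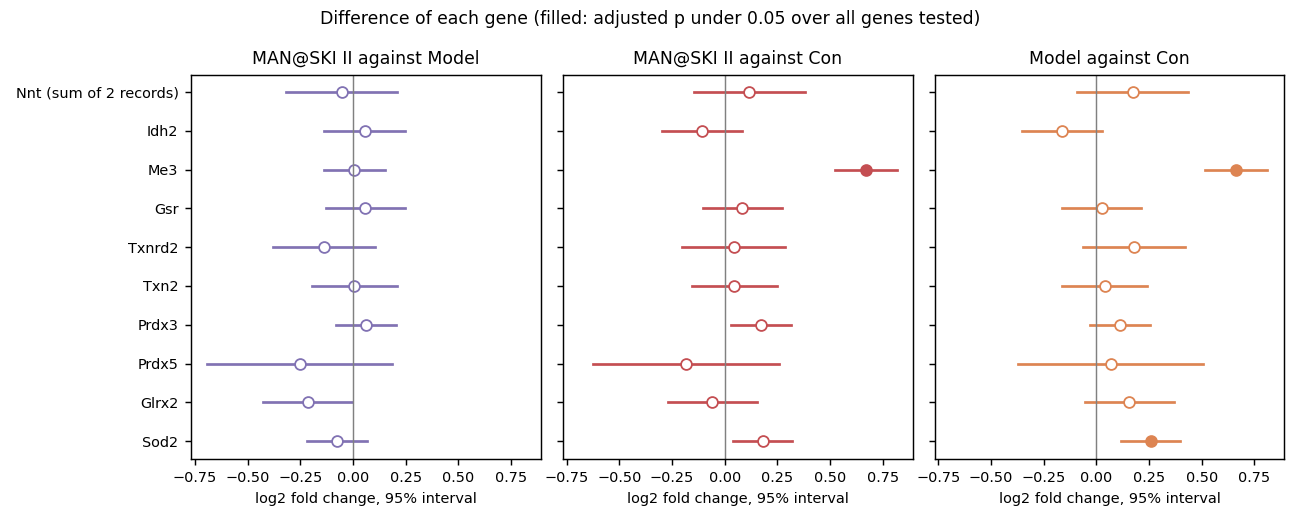
Log2 fold change with its 95% interval for each gene in the 3 comparisons, Nnt as the sum of its records; filled points have an adjusted p under 0.05. Filled points are Me3 in both comparisons with Con (0.67 and 0.66) and Sod2 in Model against Con (0.26), and in MAN@SKI II against Model 0 points are filled.

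Idh2, the isocitrate dehydrogenase, had 42.4, 38.3 and 36.1 CPM in the MAN@SKI II mice, 38.3, 35.7 and 38.5 CPM in the Model mice and 41.5, 45.0 and 39.5 CPM in the Con mice. It was the 1 member with a negative value for Model against Con, and its Model libraries were all below its Con libraries, but it was not called (-0.16 ± 0.09, 95% interval -0.35 to 0.03, adjusted p = 0.348 by edgeR). Taking the per-length levels (FPKM) of Nnt record ENSMUSG00000116207 plus ENSMUSG00000025453, Idh2 and Me3 as a whole, Me3 made up 30.3%, 32.9% and 32.2% in MAN@SKI II, 28.5%, 32.8% and 33.3% in Model and 21.2%, 22.6% and 22.3% in Con. The share of Idh2 was 36.1% to 40.0% in MAN@SKI II, 34.6% to 39.2% in Model and 42.3% to 47.8% in Con. With counts divided by the longest transcript instead, the share of Me3 was 41.5% to 45.6% in the 6 BTBR libraries and 30.7% to 32.8% in Con, so the size of the share depends on the length used and the order of the strains does not.

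The thioredoxin branch was not called. Txnrd2, which returns electrons from NADPH to thioredoxin, had 12.7, 10.9 and 12.7 CPM in MAN@SKI II mice, 13.9, 12.6 and 13.4 CPM in Model and 10.8, 12.0 and 12.5 CPM in Con. Its Model libraries were all above its Con libraries, at 0.18 ± 0.11 (adjusted p = 0.429 by edgeR). Txn2, the thioredoxin itself, had 46.7 ± 1.35, 46.5 ± 2.72 and 45.3 ± 5.27 CPM in MAN@SKI II mice, Model and Con (SD, n = 3 each), with overlapping groups and 0.04 ± 0.09 for Model against Con.

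Prdx3, the thioredoxin-dependent peroxidase of the matrix, had 60.4, 60.4 and 59.8 CPM in MAN@SKI II mice, 60.6, 55.3 and 57.1 CPM in Model and 52.7, 54.5 and 52.9 CPM in Con. Both BTBR groups were above all Con libraries without being called: the value was 0.11 ± 0.06 for Model against Con (adjusted p = 0.3997) and 0.17 ± 0.06 for MAN@SKI II against Con (adjusted p = 0.141, both by edgeR). Prdx5, a peroxiredoxin of mitochondria, peroxisomes and cytosol, had 115, 74.0 and 143 CPM in MAN@SKI II mice, 130.5, 130.3 and 135 CPM in Model and 128, 125 and 125 CPM in Con. Model and Con differed by 0.07 ± 0.19 although all Model libraries were above all Con libraries; the fit uses 1 estimate of spread for the 3 groups, and the treated libraries ranged from 74.0 to 143 CPM. Its MAN@SKI II against Con value was -0.18 ± 0.19 and became 0.036 without MAN@SKI II 2. Prdx5 overlaps the oppositely oriented Trmt112 by 409 bases.

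Gsr, which recycles glutathione in cytosol and mitochondria, had 26.02 ± 0.425, 25.0 ± 0.946 and 24.6 ± 1.90 CPM in MAN@SKI II mice, Model and Con (SD, n = 3 each), 0.02 ± 0.09 for Model against Con. Glrx2, the mitochondrial glutaredoxin, had 36.6, 34.2 and 41.5 CPM in MAN@SKI II mice, 47.6, 43.9 and 39.0 CPM in Model and 37.9, 39.8 and 39.3 CPM in Con, and the groups overlapped. For Model against Con its value was 0.16 ± 0.10 (adjusted p = 0.432 by edgeR).

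Counted by libraries that do not overlap, 5 of the 11 rows (Me3, Sod2, Prdx3, Prdx5 and Txnrd2) had all Model libraries above all Con libraries and 1 (Idh2) had them below. Over all genes tested 16.0% did so upward and 16.2% downward.

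Whether the treatment changed these genes within BTBR mice was examined in MAN@SKI II against Model. None of the 11 rows was called: edgeR, DESeq2 and limma-voom each called 0 members, with 1 at an unadjusted p under 0.05 by edgeR and 0 by the other tools. Over all genes tested edgeR called 0% and DESeq2 called 15 genes. The groups of all 11 rows overlapped, while those of 9.43% of all genes did not. The 95% intervals, as folds, were 0.803 to 1.155 for Nnt (records summed), 0.909 to 1.11 for Me3, 0.859 to 1.05 for Sod2, 0.910 to 1.19 for Idh2, 0.946 to 1.153 for Prdx3 and 0.619 to 1.14 for Prdx5. The widest was that of Nnt record ENSMUSG00000025453, at 0.588 to 2.81, and that of Glrx2 was 0.743 to 0.998 before any adjustment for the number of genes. Glrx2 had the smallest p of the 11 (-0.22 ± 0.10, unadjusted p = 0.0477, adjusted p = 0.914 by edgeR).

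The library MAN@SKI II 2, the one with the most mitochondrially encoded counts, had 3 members below the range of the other 5 BTBR libraries. Prdx5 had 74.0 CPM there against 115 to 143 CPM, Txnrd2 10.9 against 12.6 to 13.9 CPM and Glrx2 34.2 against 36.6 to 47.6 CPM. Genes with short lengths were low in that library: among genes of at least 5 in mean log2 CPM, cut into 5 equal bins by FPKM length, the median log2 deviation from the other BTBR libraries was -0.12 in the bin of shortest genes (108 to 4424 bases) and 0.16 in the bin of longest genes. As log2 ratios to the mean of the other BTBR libraries, Prdx5 (4002 bases) had -0.82 and Prdx3 (1478 bases) 0.04, both in the bin of shortest genes. Glrx2 (18146 bases), in the bin of longest genes, had -0.29. Txnrd2 (7243 bases, -0.26) and Gsr (2976 bases, 0.0016) were below the level of the binned genes. The part of length in these values was not tested.

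For MAN@SKI II against Con, 1 of the 11 rows was called, Me3, and 4 reached 0.05 before adjustment. Of all genes tested, 3.43% were higher and 4.70% lower in MAN@SKI II. Me3, Sod2 and Prdx3 had all MAN@SKI II libraries above all Con libraries, as did 13.0% of all genes, and 0 members had them below, against 14.4% of all genes. Both comparisons with Con use the same Con mice, so their agreement for Me3 is not independent evidence.

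Levels of different genes can be compared only per length. On the deposited FPKM scale, Prdx3 (40.3 ± 0.9753 in MAN@SKI II, 39.1 ± 1.89 in Model, 36.3 ± 0.675 in Con; SD, n = 3 each) and Prdx5 (27.5 ± 9.19, 33.1 ± 0.779 and 31.6 ± 0.706 in the same order) were highest. Sod2 came next with 13.0 ± 0.566, 13.9 ± 0.379 and 11.6 ± 0.316 FPKM. Gsr, Txn2 and Idh2 formed a middle rank between 7.29 and 8.65 FPKM in their group means. Glrx2 (2.04 to 2.41 FPKM) and Txnrd2 (1.63 to 1.84 FPKM) were lowest in every group on this scale. Next to Nnt, Me3 was at 6.23 ± 0.0362 FPKM in MAN@SKI II, 6.30 ± 0.300 in Model and 3.98 ± 0.176 in Con, and Nnt record ENSMUSG00000116207 at 5.37 ± 0.479, 5.99 ± 1.27 and 5.68 ± 0.483 FPKM. With both Nnt records summed, Nnt was at 5.93 ± 0.357, 6.43 ± 1.12 and 5.91 ± 0.490 FPKM in the same order. In Model the libraries of Me3 and of the record overlapped, and in Con every Nnt value (5.21 to 6.17 FPKM) was above every Me3 value (3.79 to 4.13 FPKM). Part of this order rests on the authors' lengths. For Prdx3 (1478 bases) and Nnt record ENSMUSG00000116207 (3339 bases) these equal the only M21 transcript. For the other members they exceed the longest M21 transcript, as for Me3 (15611 against 4485 bases). Prdx5 has 4002 bases for a gene that spans 3410. Per kilobase of the longest transcript, Prdx5 was first and Txnrd2 again last. Gsr was 7 or 8 in the order of 10, Glrx2 was 7 or 8, Nnt was 9, and Me3 was above Nnt in all 3 groups.

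Other genes of the same chemistry were counted from lists. Of all genes tested, 3.11% were higher and 4.52% lower in Model. Whether the counts of any list differ from these shares was not tested. Of 8 further genes of mitochondrial NADPH supply, 0 rose and 1 fell in Model. This was Mthfd2, a folate dehydrogenase of the matrix, with 4.79 ± 0.233 CPM in Model and 6.98 ± 0.526 CPM in Con (-0.54 ± 0.14, adjusted p = 0.0352 by edgeR). Of 13 further mitochondrial peroxide and glutathione genes 1 fell, Hagh, a glyoxalase that releases glutathione, with 45.9 ± 0.986 CPM in Model and 59.4 ± 7.02 CPM in Con (-0.37 ± 0.09, adjusted p = 0.0244). Of 21 cytosolic and extracellular NADPH and thiol genes 0 rose and 2 fell. Cat, the catalase of peroxisomes, had 36.5 ± 3.28 CPM in Model and 52.1 ± 0.722 CPM in Con (-0.51 ± 0.08, adjusted p = 0.00224), and Sod3, the secreted superoxide dismutase, had -0.52 ± 0.13 (adjusted p = 0.0317).

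Of the NRF2 targets, genes that this regulator induces on oxidative stress, 0 of 14 tested were called in Model, with 1 at an unadjusted p under 0.05, Me1, the cytosolic malic enzyme (0.24 ± 0.08, adjusted p = 0.0810 by edgeR). The list shares Gclc, Gclm, Txnrd1, G6pdx and Me1 with the cytosolic genes. Of 10 genes of the mitochondrial stress response 0 were called, with 3 at an unadjusted p under 0.05. Of 16 genes that track matrix content 1 fell, Idh3a, a subunit of the NAD-dependent isocitrate dehydrogenase (-0.22 ± 0.05, adjusted p = 0.0289), and the median of the 16 was 0.02, while Cs, citrate synthase, had 304 ± 9.47 CPM in Model and 281 ± 8.62 CPM in Con (0.11 ± 0.05, adjusted p = 0.289). The medians of the other lists were -0.04 for NADPH supply, 0.0079 for peroxide and glutathione, -0.02 for cytosolic genes, 0.03 for NRF2 targets and -0.03 for the stress response. The calls of Mthfd2, Hagh, Sod3 and Idh3a were lost when single Model or Con libraries were left out (adjusted p up to 0.133, 0.110, 0.121 and 0.127), and that of Cat was kept in each case.

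**Figure D4:**
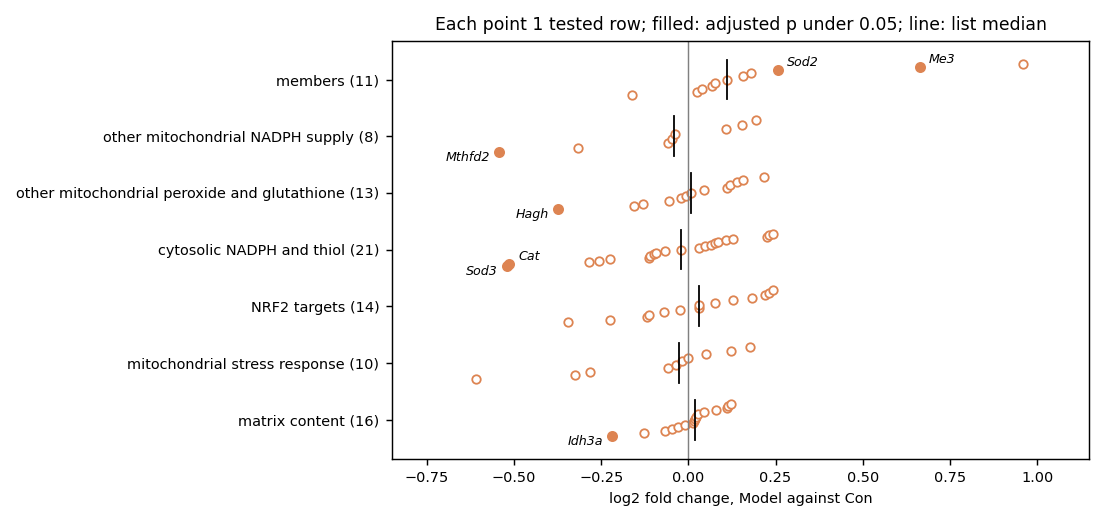
Log2 fold change of Model against Con for each tested row of the members and of 6 lists of related genes (number tested in brackets), with filled points at an adjusted p under 0.05 and a line at each median. Me3 and Sod2 are the filled points above 0, and Mthfd2, Hagh, Cat, Sod3 and Idh3a are filled below 0; the open point at 0.96 is Nnt record ENSMUSG00000025453.

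With treatment, against Model, 0 genes of these 6 lists were called. Before adjustment, 1 gene of NADPH supply, 2 of peroxide and glutathione, 1 cytosolic gene and 1 NRF2 target were under 0.05 by edgeR. Of all 17550 genes tested, 846 were under 0.05. The smallest p was that of the NRF2 target Gstm1 (0.31 ± 0.08, unadjusted p = 0.00283, adjusted p = 0.914 by edgeR). The others were Mthfd2 (0.44 ± 0.14, unadjusted p = 0.00892, adjusted p = 0.914), Tkt (0.24 ± 0.09), Glrx5 (-0.42 ± 0.18) and Ethe1 (0.33 ± 0.15). Mthfd2 had 6.49 ± 0.685 CPM in MAN@SKI II mice and 4.79 ± 0.233 CPM in Model mice (SD, n = 3 each). Against Con, 1 gene rose in the MAN@SKI II group, Glud1, the glutamate dehydrogenase (0.20 ± 0.05, adjusted p = 0.0396 by edgeR), and 4 fell: Hagh (-0.34), Cat (-0.52), Sod3 (-0.72) and Idh3a (-0.22). Of all genes tested, 3.43% were higher and 4.70% lower in this comparison. The call of Glud1 was lost when any library but MAN@SKI II 2 was left out (adjusted p up to 0.148). That of Hagh was lost without any library but MAN@SKI II 2 or Con 3 (up to 0.1575), and that of Idh3a without MAN@SKI II 1, MAN@SKI II 3, Con 2 or Con 3 (up to 0.121), while those of Cat and Sod3 were kept in each case.

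Several genes near Nnt had lower counts in BTBR mice than in Con mice although Nnt itself was not called. The mouse reference genome is that of the Con strain, and its part in these lower counts was not tested. Of 47 genes within 1 Mb of Nnt, 12 could be tested, and their median was -0.48. Of these 12, 5 fell in Model and 0 rose, while of all genes tested 4.52% were lower and 3.11% higher. All 5 lay on the side of the higher coordinates, which for Nnt on the minus strand is upstream. On the other side only Fgf10 and Mrps30 could be tested, so most tested genes lay upstream too. The locus 4833420G17Rik, which starts 53.8 kb away, had 12.8, 13.8 and 13.2 CPM in Model and 43.0, 41.7 and 42.6 CPM in Con (-1.68 ± 0.10, adjusted p = 1.72e-06 by edgeR). Tmem267, a transmembrane protein gene at 79.0 kb, had 1.98, 2.61 and 3.18 CPM in Model and 11.1, 13.3 and 12.6 CPM in Con (-2.25 ± 0.19, adjusted p = 3.43e-05). Ccl28, a chemokine of mucosal tissues at 540 kb, had 3, 0 and 2 counts in Model and 46, 52 and 61 counts in Con (adjusted p = 0.000141).

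The remaining called neighbours were 3110070M22Rik (-1.88 ± 0.42, adjusted p = 0.0195 by edgeR, lost without Model 1, Model 3 or Con 2) and the kinase gene Nim1k (-0.54 ± 0.09, adjusted p = 0.00414). Paip1, a translation factor and the gene nearest to Nnt at 19.6 kb, lies between Nnt and these genes and was not called, with 51.9 ± 0.861 CPM in Model and 55.0 ± 3.56 CPM in Con (-0.08 ± 0.08, adjusted p = 0.672). Hmgcs1, an enzyme of cholesterol synthesis at 606 kb, lies between Ccl28 and Nim1k and had 0.14 ± 0.06 (adjusted p = 0.258). On the other side Fgf10, a growth factor at 543 kb, had -0.12 ± 0.13, and Mrps30, a mitochondrial ribosomal protein at 948 kb, had 0.08 ± 0.09. Of the 12, 0 were called in MAN@SKI II against Model, and in MAN@SKI II against Con 6 fell, these 5 and Zfp131, a zinc finger gene (-0.50 ± 0.12, adjusted p = 0.0253). In this comparison the call of Zfp131 was lost without MAN@SKI II 3, Con 1 or Con 3 (adjusted p up to 0.111), that of Nim1k without the same libraries (up to 0.0892), and that of 3110070M22Rik without MAN@SKI II 1, MAN@SKI II 3 or Con 2 (up to 0.0859).

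Around Me3, looked at after its value was known, 19 of 43 genes within 1 Mb were tested, and 0 rose and 2 fell in Model: E230029C05Rik (-1.58 ± 0.23, adjusted p = 0.00163 by edgeR) and Gm45793 (adjusted p = 0.000141). Gm45793 is a predicted gene on the same strand inside Me3 (chromosome 7, 89476426 to 89477767). It had 0, 1 and 0 counts in MAN@SKI II, 1, 0 and 1 in Model and 27, 40 and 40 in Con, where Me3 had 896, 1091 and 1179 counts. The nearest coding genes were not called. Here too the part of the reference strain in the low BTBR counts of Gm45793 and E230029C05Rik was not tested.

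**Figure D5:**
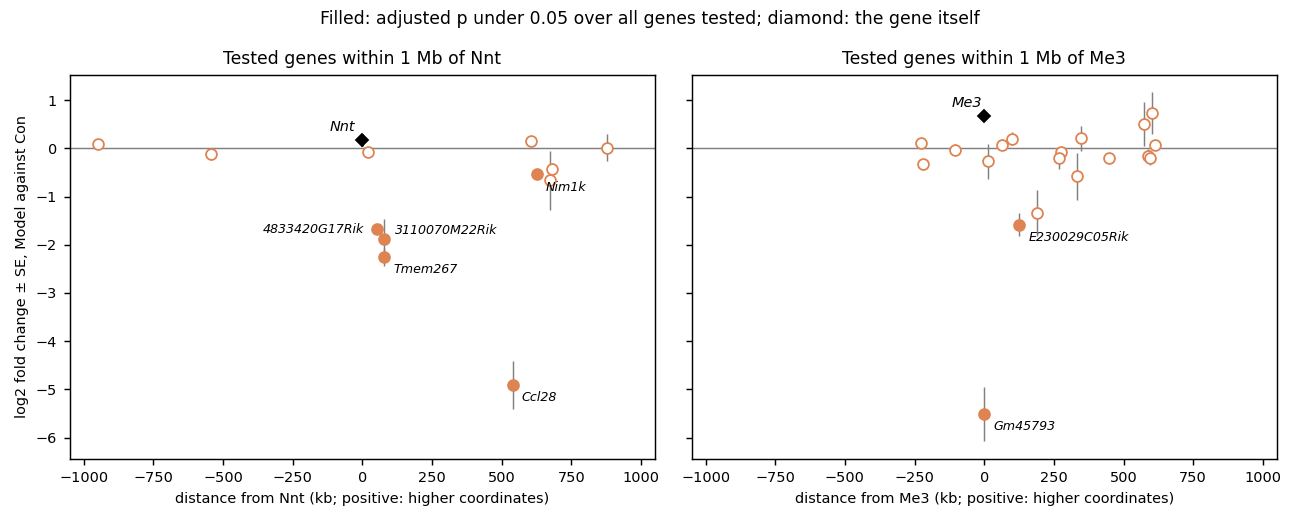
Log2 fold change (± SE) of Model against Con for tested genes within 1 Mb of Nnt (left) and Me3 (right) against their distance in kb, positive toward higher coordinates; filled points have an adjusted p under 0.05 and diamonds are Nnt (records summed) and Me3. The 5 filled points near Nnt lie below 0 at 53.8 to 626 kb on its right, while Nnt itself is at 0.17; near Me3 (0.66) the filled points are Gm45793 and E230029C05Rik.

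The genes whose log2 CPM ran most like Nnt over the 9 libraries, among 11554 coding genes of at least 5 CPM, were Terf2ip (Pearson r = 0.88), Pym1 (0.88), Cdc7 (0.87), Itga6 (0.86) and Orai1 (0.85) for record ENSMUSG00000116207. For the sum of both records they were Nxpe3 (0.90), Mxi1, Sh3bp1, Akr1b10 and Pias3 (0.88 for the last). The top 5 differed wholly between the record and the sum, and none is a member. Both genes of a pair were measured in the same 9 libraries, which come from 2 strains. So many candidates over 9 libraries give high values at the top, so these are descriptions.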

How the data were processed

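RNA of 9 hippocampi, enriched for mRNA on oligo-dT beads per the labels, had been sequenced. The deposited table gives raw read counts per gene, per the file headers, and FPKM values by the authors, in which the count is scaled by the library total and by 1 length for each gene. The submitters' processing notes name HISAT2 2.0.4, StringTie 1.3.3b, edgeR 3.2.0, Bowtie2 and GRCm39; which program counted reads, and with what strand setting, is not given in the sources used here, so reads of genes that overlap on opposite strands cannot be told apart.

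Counts were tested with edgeR 4.0.16 in R 4.3.3: filterByExpr (17550 genes kept), TMM factors (0.96 to 1.01), a robust quasi-likelihood fit to all 9 libraries with group as the only term, two-sided tests and Benjamini-Hochberg adjustment over all genes tested. The procedure was tested on simulated data. Levels are TMM-normalised CPM. Log2 CPM used a prior count of 2, except for the sum of the Nnt records, which had none. The titles call the replicates biological, and groups and numbers follow the titles. Replicate numbers are not said to pair mice. Alternatives were RLE factors, no factors, no filter, at least 1 CPM in 3 libraries, DESeq2 1.42.0, limma-voom (limma 3.58.1), the 6 compared libraries alone, a replicate block and leaving out each library. Summing the Nnt records was added after seeing the data.

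Members, lists and tests were chosen with earlier results of these data known. Named were all members, up to 3 called genes per list, direction and comparison, called genes within 1 Mb of Nnt with coding neighbours, and the 5 coding genes most correlated with Nnt. Gene models (GENCODE M21, GRCm38) were matched by gene ID only, promoters are RefSeq's on GRCm38.p6, and all other coordinates are the deposited ones on GRCm39. Shared sequence was found with BLAST 2.17.0 (97% identity, 150 bases and 50% of the shorter transcript as minimums). Floors are 3 counts.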

Additional observations from a re-analysis of the deposited data

How the results depend on the processing

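Me3 kept its call against Con in both comparisons under all 17 alternatives (0.62 to 0.70 on the log2 scale). Of 612 recomputed member values, 579 kept direction and side of the threshold, 8 lost the call (all Sod2, Model against Con), 1 gained one (Nnt record ENSMUSG00000025453, above) and 24 changed sign, all of them uncalled values; the cause was not tested. Members called in Model against Con were 1 with the replicate block (Sod2 adjusted p = 0.0591) and 1 to 2 with a library left out, and in MAN@SKI II against Con 1 to 2. Genes called in Model against Con numbered 2073 with the 6 libraries alone and 830 (without Con 1) to 2226 (without MAN@SKI II 2), against 1340. Between MAN@SKI II and Con they numbered 857 (without Con 1) to 1633 (without MAN@SKI II 2) with a library left out and 1033 (the 6 libraries alone) to 1681 (DESeq2) under the other alternatives, against 1427. For MAN@SKI II against Model they numbered 1 with no factors, 1 with no filter, 1 with the replicate block, 1 with the 6 libraries alone, 15 by DESeq2 and 0 to 9 with a library left out, against 0. Libraries with the same title number had correlations of their deviations from -0.0639 to 0.0525, so no pairing by title number was seen. The library names carry other numbers, and pairing by those was not tested. Besides Sod2, the block ended the calls of Mthfd2, Sod3 and Idh3a in Model against Con. In MAN@SKI II against Con it ended those of Hagh, Glud1 and Idh3a. With the 6 libraries alone, Hagh, Glud1, Idh3a, Zfp131 and Nim1k lost theirs in MAN@SKI II against Con. With no filter, Mthfd2 and Idh3a lost theirs in Model against Con (adjusted p = 0.0578 and 0.062 by edgeR). In MAN@SKI II against Con, Glud1 lost its call with no filter (0.0778) and with no factors (0.0592, both by edgeR). Hagh lost its call there by limma-voom (adjusted p = 0.0513).

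Signs turned as follows, given as lowest and highest values with a library left out. In Model against Con these were Nnt record ENSMUSG00000116207 (-0.092 to 0.22), Gsr (-0.0087 to 0.090) and Txn2 (-0.054 to 0.11). The sign turned in the treatment comparison for Idh2 (-0.012 to 0.11), Txn2 (-0.019 to 0.056), Me3 (-0.031 to 0.039), the Nnt records ENSMUSG00000116207 (-0.28 to 0.031) and ENSMUSG00000025453 (-0.10 to 0.75) and their sum (-0.17 to 0.029). Between MAN@SKI II and Con it did for Prdx5 (-0.41 to 0.036), Glrx2 (-0.14 to 0.0027), Txnrd2 (-0.015 to 0.11), Nnt record ENSMUSG00000116207 (-0.12 to 0.0092) and Txn2 (-0.047 to 0.11). For the treatment, Me3 was -0.015 and Txn2 -0.014 with no factors, and -0.0070 and -0.0062 with no filter. With 24 to 101 counts per library, record ENSMUSG00000025453 is the least precise member.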
